A study of Mus musculus with 6 samples.

Results

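The genes described here are the mouse Zfp genes, the numbered zinc finger protein genes, in cells treated with NETs. Neutrophil extracellular traps (NETs) are webs of chromatin and granule protein shed by neutrophils. They were taken from the deposited gene table by symbol, as Zfp followed by a number of 2 or 3 digits, without Zfp36, which encodes an mRNA-decay protein with another kind of zinc finger. They were also chosen by their measured level, a mean of 2 or more counts per 1000000 (CPM) over the 6 libraries, so levels near this minimum are a description. This gave 264 of the 55401 listed genes, with 263 symbols, since Zfp91 is listed under 2 identifiers. The symbol rule alone found 370 rows, and 41 of the 106 rows under the minimum had no count in any library. The rows just outside the minimum were Zfp608 at 1.95, Zfp273 at 1.98 and Zfp763 at 1.98 CPM, and those just inside were Zfp532 at 2.11, Zfp438 at 2.15 and Zfp455 at 2.17 CPM. Of the members, 254 reached the minimum in both groups, 7 only through the control group and 3 only through the NETs-treated group.

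RNA from mouse cells of wild-type genotype was sequenced in 3 control samples and 3 samples treated with NETs. The labels call the cells BMDM (macrophages grown from bone marrow), but the titles say BV2, the name of a microglial line. Strain, donor age, NETs dose and exposure time are not stated in the labels. Nor do the labels tie the samples of a group to separate cultures or animals, so the spread behind the p-values may be technical. The libraries held 39994613 to 44274445 counts. All 8 macrophage markers checked were measured, with a summed level of 5610 to 5780 CPM in control and 10200 to 10500 CPM in NETs-treated libraries. Cd14 went from 691 ± 6.08 to 5442 ± 85.7 CPM (SD, n = 3), and the other 7 summed to 4920 to 5093 CPM in control and 4870 to 5066 CPM after NETs. Of the 8, 6 were lower after NETs, and Mrc1 stayed below 2 CPM throughout. Among microglial markers, Sall1 was at 0 in every library. P2ry12 had 0.744, 0.789 and 1.1 CPM in control and 0.212, 0.175 and 0 CPM in NETs-treated libraries, Cx3cr1 had 2.51, 1.97 and 1.5 against 0.941, 0.374 and 1.2 CPM, and Tmem119 had 2.09, 1.14 and 1.1 against 5.55, 4.66 and 4.9 CPM. Of 10 neutrophil markers, 6 (Ltf, Ly6g, Mpo, Ngp, Retnlg and S100a9) were at 0 in all libraries, and the list summed to 3.02 to 4.78 CPM in control and 9.34 to 14.3 CPM in NETs-treated libraries. S100a8 rose there from 2.68 ± 0.591 to 11.7 ± 2.67 CPM, while Prtn3 fell from 1.26 ± 0.478 to 0.209 ± 0.225 CPM (SD, n = 3). The 4 T cell markers were at 0. The part of these marker differences in the Zfp results was not tested.

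Most Zfp genes encode proteins with a row of C2H2 zinc fingers, short loops in which a pair of cysteines and a pair of histidines hold a zinc ion and neighbouring residues touch DNA. The largest group carries a KRAB domain at the amino end, which binds the corepressor TRIM28 (also called KAP1) and, through it, the histone methyltransferase SETDB1 and heterochromatin protein HP1. KRAB zinc finger proteins are best known for silencing retroelements and guarding imprinted loci, and their genes lie in clusters that grew by duplication. Other Zfp proteins activate transcription, recruit chromatin complexes, bind RNA or act as ubiquitin or SUMO ligases.

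Coding sequences show what the members share. An in-frame search for the codon pattern of a C2H2 finger (cysteine, 2 to 4 codons, cysteine, 12 codons, histidine, 3 to 5 codons, histidine) found at least 1 finger in 258 of the 263 members that could be matched to an annotated transcript, with a median of 10 and up to 36 per transcript. Zfp287, the member with the largest rise apart from the second Zfp91 identifier, shows the repeat. Its first 3 of 14 finger patterns are printed with the cysteine and histidine codons in capitals, at bases 1102 to 1353 of the coding sequence (GENCODE M21).
Zfp287 repeat 1: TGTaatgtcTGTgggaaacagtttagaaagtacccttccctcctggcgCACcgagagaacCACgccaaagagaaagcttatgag
Zfp287 repeat 2: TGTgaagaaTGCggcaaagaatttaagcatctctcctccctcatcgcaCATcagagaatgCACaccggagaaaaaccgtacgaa
Zfp287 repeat 3: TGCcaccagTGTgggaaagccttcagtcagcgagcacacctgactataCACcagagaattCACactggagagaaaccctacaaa
The spacing of the capitals is the same in the 3 repeats, while the bases between the second cysteine codon and the first histidine codon, which encode the DNA-contacting stretch, differ. The closing bases of each repeat encode the linker to the next finger.

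A second in-frame pattern, for the conserved start of the KRAB A box, was found in 133 of 263 members (50.6%), in 35.95% of the table's coding genes with a C2H2 pattern and in 1.48% of all its coding genes. It runs from an aspartate codon to a tryptophan codon (TGG). The pattern is shown for members that rose (Zfp52, Zfp51, Zfp667 and Zfp445) and for Zfp809, which fell, with the codons the search required in capitals.
Zfp52 KRAB pattern: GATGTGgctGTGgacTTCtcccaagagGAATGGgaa
Zfp51 KRAB pattern: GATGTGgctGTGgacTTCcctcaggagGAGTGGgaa
Zfp667 KRAB pattern: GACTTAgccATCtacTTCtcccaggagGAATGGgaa
Zfp445 KRAB pattern: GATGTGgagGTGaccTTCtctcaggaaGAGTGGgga
Zfp809 KRAB pattern: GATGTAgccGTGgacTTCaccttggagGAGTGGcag
The match is to these codons only, so a gene without it may still encode a KRAB domain that reads differently, and the pattern sorts genes rather than proves a domain.

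The comparison of NETs-treated with control cells asks which transcripts differ after exposure to NETs. Among the 264 Zfp genes, 104 were higher in NETs-treated cells (39.4%), 40 were lower (15.2%) and 120 did not pass the threshold. The test was edgeR's quasi-likelihood test, adjusted by the Benjamini-Hochberg method over 15272 tested genes, with a threshold of 0.05. Over all tested genes 25.5% were higher and 27.2% lower, and over the 11572 tested genes that reached 2 CPM the shares were 30.3% and 31.3%. The members' median log2 fold change was 0.26, against -0.02 for all tested genes and -0.01 for tested genes with at least 2 CPM. Rises of at least 2-fold were called in 30 members and falls of that size in 11, where the background was 7.39% and 11.9% of all tested genes, or 6.52% and 11.2% of those that reached 2 CPM. With 120 of 264 members not called, the share called in either direction was near the 52.7% of all tested genes. It was below the 61.6% of tested genes that reached 2 CPM, the set with the members' own minimum. The members' calls also differed from both backgrounds in the split between rises and falls. These counts include members that reached the minimum through 1 group, of which 6 were called lower and 2 higher. Among the 254 members at 2 CPM or more in both groups, a condition added after seeing the data, 102 were higher (40.2%) and 34 lower (13.4%), against 30.6% and 30.2% of 11033 tested genes chosen in that way. Leaving out control replicate 2 or 3 lowered the count of falls from 40 to 24 or 25 and that of rises from 104 to 84 or 89. Over all tested genes the shares dropped there too, to 20.7% higher and 21.8% lower. Whichever library was left out, the count of rises stayed between 84 and 107 and that of falls between 24 and 40.

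**Figure D1:**
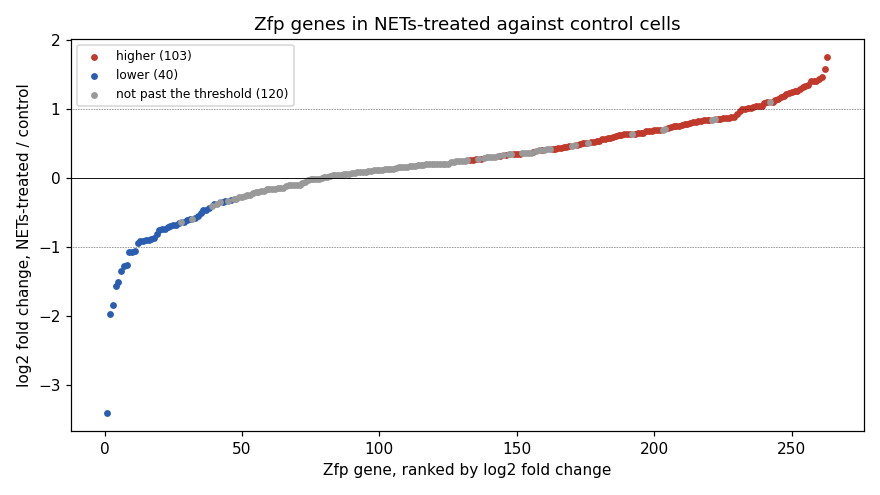
Log2 fold change (NETs-treated over control, vertical axis) of 263 Zfp genes ranked from the largest fall to the largest rise (horizontal axis), coloured by whether edgeR's adjusted p passed 0.05. The second Zfp91 identifier is not drawn, which leaves 103 rises and 40 falls, and the dotted lines mark a 2-fold change.

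The 3 NETs-treated libraries lay above all 3 control libraries for 119 members and below them for 48, and the groups overlapped for 97. Over all tested genes, groups that did not overlap made up 29.9% in the upward and 32.5% in the downward direction (62.4% in all), and over those that reached 2 CPM 33.8% and 35.4% (69.2% in all). The summed level of the members was 5443, 5666 and 5663 CPM in the control libraries and 7040, 7128 and 7320 CPM after NETs. The groups did not overlap, with means of 5590 ± 128 and 7162 ± 143 CPM (SD, n = 3), a ratio of 1.28. Per library, the members' median log2 ratio to the control mean was 0.22, 0.24 and 0.30 in the NETs-treated libraries, while that of all tested genes was -0.01, -0.03 and -0.05. In bulk RNA a change in the cells' make-up and a change of RNA per cell cannot be told apart.

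Genes outside the symbol rule that carry a C2H2 codon pattern and reach the same minimum leaned the same way. Of 256 such genes, 94 were higher (36.7%) and 55 lower (21.5%), beside 30.3% and 31.3% of all tested genes that reached 2 CPM. The median log2 fold change of the 256 genes was 0.18. The difference between these genes and the Zfp genes was not tested.

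**Figure D2:**
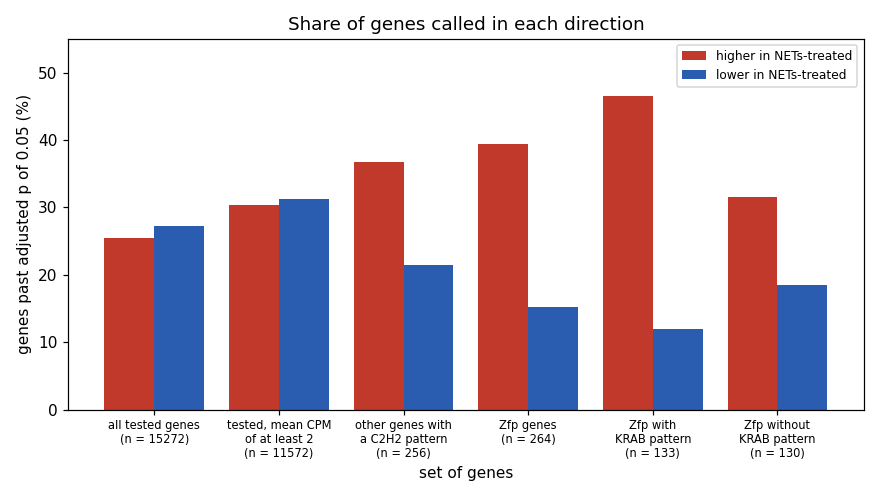
Share of genes (vertical axis, %) called higher or lower in NETs-treated cells at an adjusted p of 0.05, for sets of genes named below the bars with their number. The Zfp genes had 39.4% higher and 15.2% lower, against 25.5% and 27.2% of all tested genes.

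The largest rises and falls described next were picked from members whose groups did not overlap. Zfp287, which encodes a zinc finger protein with a SCAN domain, was at 18.2, 16.3 and 17.9 CPM in control and 60.7, 60.4 and 55.8 CPM in NETs-treated libraries. Its rise of 1.76 ± 0.09 (log2, SE; adjusted p = 1.46e-06) is a 3.38-fold change, and no NETs-treated library came near a control library. Zfp667, known as Mipu1 from its induction in ischaemic heart, was at 4.63, 4.45 and 3.44 CPM in control and 12.1, 12.5 and 12.7 CPM in NETs-treated libraries, a log2 rise of 1.57 ± 0.16 (adjusted p = 7.94e-05). Zfp451, a SUMO ligase that also acts with topoisomerase II, combined a large change with a high level. It was at 83.4, 89.5 and 92.2 CPM in control and 211.1, 237.5 and 253.7 CPM in NETs-treated libraries, a log2 rise of 1.41 ± 0.09 (adjusted p = 4.46e-06). The other genes among the 10 largest rises were Zfp954, Zfp51, Zfp850, Zfp961, Zfp52 and Zfp658, with log2 rises of 1.33 to 1.46, together with the second Zfp91 identifier. All 6 carry the KRAB pattern, as does Zfp667. Zfp961 overlaps exons of Cyp4f18 on the other strand.

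Among the falls, Zfp469, whose human counterpart is mutated in brittle cornea syndrome, had the largest fitted change and also one of the widest spreads. Its identifier matched a lincRNA record without a coding sequence in the annotation used, under another version, so it counts among members without a finger or KRAB pattern for that reason. It was at 9.21, 33.5 and 29.6 CPM in control and 1.18, 4.41 and 1.25 CPM in NETs-treated libraries, a log2 fall to -3.40 ± 0.62 (adjusted p = 0.00191). Control replicate 1 was more than 3-fold below the other controls, yet the groups did not overlap. Zfp467, which favours adipocyte over osteoblast fate in marrow stroma, fell from 41.9, 38.1 and 34.6 CPM to 16.7, 11.1 and 10.8 CPM, a log2 change of -1.57 ± 0.18 (adjusted p = 0.00013). Zfp462, a chromatin regulator of pluripotent cells, fell from 16.7, 18.5 and 18.4 CPM to 6.21, 6.71 and 5.92 CPM, a log2 change of -1.51 ± 0.12 (adjusted p = 2.23e-05). Zfp653, a nuclear receptor corepressor, fell from 9.44, 11.5 and 9.72 CPM to 3.55, 2.99 and 2.04 CPM, with a log2 change of -1.83 ± 0.23 (adjusted p = 0.000219). Its transcript shares 21.9% of its 75-base words with the overlapping gene Gm49318, so reads of the pair may not be parted. The remaining falls among the 10 largest were Zfp532 (-1.97), Zfp362 (-1.35), Zfp414 (-1.27), Zfp438 (-1.25), Zfp764 (-1.07) and Zfp809 (-1.07) on the log2 scale. Zfp764 (adjusted p = 0.0336) lost its call without control replicate 2 or 3 (adjusted p of 0.0727 and 0.118) or NETs-treated replicate 2 (adjusted p = 0.0875). Zfp532 and Zfp438 passed the abundance minimum only through the control group.

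**Figure D3:**
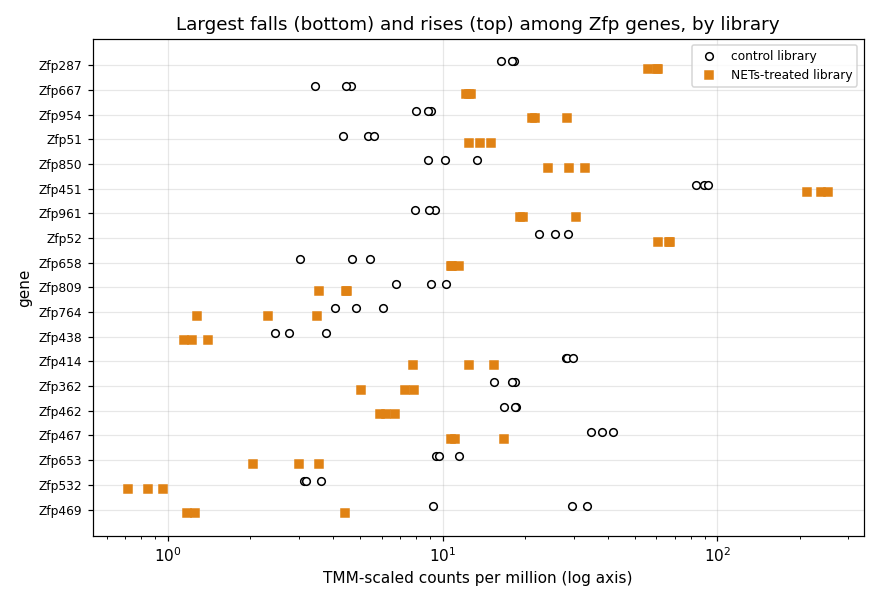
TMM-scaled CPM (horizontal log axis) of the 19 Zfp genes with the largest called changes, 1 row per gene, with open circles for the 3 control and filled squares for the 3 NETs-treated libraries. Rows were picked from genes whose groups do not overlap. The second Zfp91 identifier is left out because it was at 0 in all control libraries.

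Zfp952 and Zfp184 had wide spread among their control libraries. Zfp952 was at 3.56, 0.812 and 5.88 CPM in control and 4.70, 5.86 and 7.92 CPM in NETs-treated libraries, and its log2 difference of 0.85 ± 0.56 did not pass (adjusted p = 0.239). Zfp184 was at 2.09, 0.696 and 2.53 CPM in control and 4.05, 3.04 and 4.34 CPM in NETs-treated libraries, so the groups did not overlap, but its log2 difference of 1.10 ± 0.43 missed the threshold (adjusted p = 0.0603). Without control replicate 3 the adjusted p of Zfp184 was 0.0463, and over all settings run it went from 0.0153 to 0.123. Zfp184 passed the abundance minimum only through the NETs-treated group, a choice that favours a rise, so its values are a description. In both genes control replicate 2 was the lowest library.

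Levels between genes were compared as CPM per 1000 bases of transcript. The members' median was 3.77, and the range ran from 0.31 for Zfp532 to 87.4 for the most abundant, Zfp740, which was named after its value was seen. Next came Zfp207 at 74.7, Zfp346 at 65.5 and Zfp106 at 64.6. Of the 30 members with a mean of at least 50 CPM, 22 were higher and 2 lower with a median log2 fold change of 0.43, while of all 4584 tested genes at that level 38.5% were higher and 27.8% lower with a median of 0.09.

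The RNA and ribosome proteins include 8 of these 30 members. Of 10 listed, 7 were higher (70%), 1 lower (10%) and 2 did not pass, with a median log2 fold change of 0.33. Tested genes that reached 2 CPM had 30.3% higher and 31.3% lower. Of the 8 at 50 CPM or more, 7 were higher and 1 lower. At that level 73.3% of Zfp members were higher and 6.7% lower, and 38.5% and 27.8% of all tested genes. Zfp106, an RNA-binding protein needed by motor neurons, was at 503, 539 and 532 CPM in control and 653, 662 and 644 CPM in NETs-treated libraries, a narrow pair of ranges that did not meet, with a log2 rise of 0.32 ± 0.06 (adjusted p = 0.0015). Zfp207 (BuGZ, a spindle assembly and splicing factor) rose by 0.42 ± 0.08, and Zfp638, which silences unintegrated retroviral DNA, by 0.46 ± 0.10 on the log2 scale. Zfp598, the ligase that marks collided ribosomes, was at 54.5, 52.1 and 46.9 CPM in control and 81.7, 66.0 and 68.2 CPM in NETs-treated libraries, a log2 rise of 0.49 ± 0.10 (adjusted p = 0.00387). Zfp871 rose by 0.53 ± 0.12, but it carries the KRAB pattern and its place in this list is uncertain. Without it 6 of 9 were higher and 1 lower, with a median of 0.32. Zfp330, a nucleolar protein without a C2H2 pattern, was the member that fell, from 73.2, 72.9 and 74.6 CPM to 57.9, 57.2 and 59.3 CPM, a log2 change of -0.34 ± 0.06 (adjusted p = 0.00245), and this call was lost when transcript length was corrected for (adjusted p = 0.0912). The calls of Zfp622, a factor of the large ribosomal subunit (0.34 ± 0.11, adjusted p = 0.0248), and of Zfp346, a double-stranded RNA binding protein (0.27 ± 0.09, adjusted p = 0.0339), were less firm. Zfp622 lost its call without control replicate 1, 2 or 3 (adjusted p of 0.0583, 0.0795 and 0.0862), and Zfp346 without control replicate 1, 2 or 3 or NETs-treated replicate 3 (0.0654, 0.105, 0.115 and 0.0614). Scaling by library size alone also ended both calls (0.0625 for Zfp622 and 0.108 for Zfp346).

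The ubiquitin and SUMO ligases Zfp451 and Zfp598, described above, and Zfp91 under its main identifier were higher. Over all tested genes that reached 2 CPM, 30.3% were higher and 31.3% lower. Zfp91, a ubiquitin ligase that stabilises the NF-kappa-B-inducing kinase, was at 171, 173 and 173 CPM in control and 196, 217 and 207 CPM in NETs-treated libraries under its main identifier. That log2 rise was 0.26 ± 0.06 (adjusted p = 0.00801), and its exons overlap the neighbouring gene Cntf on the same strand. The second Zfp91 identifier, a member through the NETs-treated group alone, had 0 reads in each control library and 322, 300 and 540 reads in the NETs-treated libraries. Its NETs-treated mean was 9.61 CPM, at least 421-fold higher than a floor of 3 counts over the control group (0.0228 CPM). It took 3.71%, 3.34% and 6.25% of the reads of both Zfp91 identifiers in the NETs-treated libraries, had no match in the annotation used, and was therefore not placed on the genome. Whether its reads came from another transcript of Zfp91 was not tested.

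Proteins that work with chromatin complexes moved in both directions. Of 12, 5 were higher (41.7%) and 3 lower (25%), with a median log2 fold change of 0.29. Of tested genes that reached 2 CPM, 30.3% were higher and 31.3% lower. Zfp217, a partner of the demethylase LSD1 and of CoREST, was at 56.9, 56.3 and 55.6 CPM in control and 112.5, 105.2 and 94.3 CPM in NETs-treated libraries, a log2 rise of 0.89 ± 0.08 (adjusted p = 4.3e-05). Zfp609, which works with the cohesin loader NIPBL and Integrator, rose from 99.95, 94.0 and 104.5 CPM to 196.5, 178.2 and 170.7 CPM, by 0.87 ± 0.08 (adjusted p = 3.81e-05). Zfp281, a NuRD-binding factor of stem cells, rose by 0.67 ± 0.07, Zfp516, a regulator of brown fat, by 0.63 ± 0.07, and Zfp687 by 0.48 ± 0.11. Zfp687, Zfp592 and Zfp532 are partners in one complex with ZMYND8, and they differed. Zfp592 was at 33.7 ± 1.24 CPM in control and 33.5 ± 4.66 CPM in NETs-treated libraries (SD, n = 3), with overlapping groups. Zfp532, counted among the 3 lower, fell to 0.842 ± 0.125 from 3.31 ± 0.257 CPM. It passed the abundance minimum only through the control group, a choice that favours a fall, so its values are a description. Zfp462 and Zfp827 were the other members that fell. The fall of Zfp827, a telomere-binding partner of NuRD (-0.90 ± 0.26, adjusted p = 0.0192), was lost without control replicate 1 or 2 (adjusted p of 0.0807 and 0.0508).

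Among 12 measured activators and regulators of specific promoters, 4 were higher (33.3%, near the 30.3% of all tested genes at 2 CPM or more) and 1 lower (8.3%, where that background is 31.3%), with a median log2 fold change of 0.19. Zfp423, Zfp521 and Zfp750 were at 0 in all libraries. Zfp143, which binds promoters and chromatin loop anchors, was at 19.5, 14.5 and 18.4 CPM in control and 34.8, 31.7 and 28.4 CPM in NETs-treated libraries, a log2 rise of 0.86 ± 0.13 (adjusted p = 0.000843). Zfp148, a GC-box binding factor, rose by 0.52 ± 0.10 and Zfp703, a corepressor without a C2H2 pattern match, by 0.87 ± 0.20 on the log2 scale. Zfp710 fell by 0.69 ± 0.17 (adjusted p = 0.00918). Zfp410, which drives expression of the remodeller gene Chd4, was at 29.3 ± 0.755 CPM in control and 35.1 ± 2.46 CPM in NETs-treated libraries (adjusted p = 0.0307). This call was lost without any of control replicates 1, 2 and 3 or NETs-treated replicates 2 and 3 (adjusted p of 0.0683, 0.115, 0.0973, 0.052 and 0.0536), and in the authors' deposited table its adjusted p was 0.0577.

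The silencers of imprinted loci and retroelements did not move together. Zfp445, which protects imprints in mouse and human, was at 68.7, 76.7 and 71.3 CPM in control and 83.0, 90.7 and 102.3 CPM in NETs-treated libraries, a log2 rise of 0.35 ± 0.09 (adjusted p = 0.0126) that was lost without control replicate 1 or 3 (adjusted p of 0.0541 and 0.0521). Zfp809, which recognises the primer binding site of murine leukaemia virus, fell from 6.79, 9.05 and 10.3 CPM to 4.49, 4.44 and 3.55 CPM, by 1.07 ± 0.21 on the log2 scale (adjusted p = 0.00258). Zfp568, the repressor of a placental Igf2 promoter, had 25.9, 20.9 and 23.3 CPM in control and 20.4, 9.38 and 10.1 CPM in NETs-treated libraries, so NETs-treated replicate 1 came close to the controls. Its log2 difference of -0.81 ± 0.28 passed (adjusted p = 0.0364), but not without control replicate 1, 2 or 3 (0.113, 0.0606 and 0.0861), NETs-treated replicate 2 or 3 (0.118 and 0.0883), or with correction for GC content (0.0542). Zfp932 was at 4.63 ± 0.740 CPM in control and 5.94 ± 1.89 CPM in NETs-treated libraries and did not pass (adjusted p = 0.272). The other listed silencers were not members.

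Members with the KRAB pattern included a larger share of rises than the rest. Of 133, 62 were higher (46.6%) and 16 lower (12%), with a median log2 fold change of 0.405, while of 130 without it 41 were higher (31.5%) and 24 lower (18.5%), with a median of 0.18. Of tested genes that reached 2 CPM, 30.3% were higher and 31.3% lower. The difference between members with and without the pattern was not tested. It was not seen in every range of GC content. With the pattern 37.8% were higher at up to 40% GC, 66.0% at over 40 to 45%, 40.9% at over 45 to 50%, 12.5% at over 50 to 55% and 0% of 5 members above that, where without it the shares were 46.7%, 40%, 40%, 27.6% and 19.5%. The KRAB-pattern members summed to 1421 ± 73.6 CPM in control and 1956 ± 183 CPM in NETs-treated libraries (SD, n = 3). Their GC content was lower, with a median of 41.25% of transcript bases against 51.1% in members without the pattern. When the trend of counts with GC content was removed, 60 KRAB-pattern members were higher and 14 lower with a median of 0.34, and 60 of the others were higher and 17 lower with a median of 0.30, so the gap in medians went from 0.22 to 0.04. Under that correction 32.4% of all tested genes were higher and 23.8% lower. Leaving out a library moved the count of KRAB-pattern falls from 16 to 9, 8 and 10 without control replicates 1, 2 and 3, and to 10 without NETs-treated replicate 2. KRAB-pattern rises went from 62 to 49, 49, 53 and 55 in the same fits. Without NETs-treated replicate 3 the median was 0.308 with the pattern and 0.201 without it, with 55 and 46 rises. Leaving out NETs-treated replicate 1 gave medians of 0.507 and 0.154. Per NETs-treated library, the median log2 ratio of KRAB-pattern members to the control mean was 0.24, 0.32 and 0.51. Falls among members without the pattern went from 24 to 15 without control replicate 3. A stricter form of the pattern, applied after seeing the data, was found in 89 members, of which 40 were higher and 11 lower with a median of 0.35. Of the 174 members without the stricter form, 63 were higher and 29 lower, with a median of 0.22. The 44 members with the wider pattern only had 22 higher and 5 lower, with a median of 0.53.

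GC content moved with the fold change among the members and among all tested genes. Spearman's rho between the log2 fold change and transcript GC content was -0.34 over 263 members, given as a description, since the points share the same 6 libraries. By class, 24 of 60 members with at most 40% GC were higher and 4 lower (median 0.35), 43 of 73 with over 40 to 45% were higher and 4 lower (median 0.60), and 19 of 47 with over 45 to 50% were higher and 8 lower (median 0.31). Of 37 members with over 50 to 55% GC, 9 were higher and 10 lower (median 0.09), and of 46 with over 55%, 8 were higher and 14 lower (median -0.10). Counts of rises and falls changed when single libraries were left out. Without a control library 20.7% to 20.8% of all tested genes were higher and 21.8% to 21.9% lower, against 25.5% and 27.2% with all 6 libraries. In the 3 classes up to 50% GC rises numbered 18 to 27, 36 to 44 and 16 to 22 when a library was left out. Falls there numbered 1 to 2, 2 to 4 and 7 to 8. In the class of over 50 to 55% they went to 7, 4 and 6 without control replicates 1, 2 and 3, and there the falls outnumbered the rises in none of the 6 fits without a library. Above 55% there were 9 falls without control replicate 3 and 19 without NETs-treated replicate 1, and the median was 0.005 without NETs-treated replicate 3. The medians of all tested genes that reached 2 CPM fell in order through these classes, at 0.27, 0.14, 0.04, -0.06 and -0.18. Within each class the members' median was above that of all genes, but the share of rises was not. Rises made up 40%, 58.9%, 40.4%, 24.3% and 17.4% of members from the lowest class to the highest, and 42.8%, 37.0%, 32.8%, 28.3% and 22.3% of all these genes. Falls made up 6.7%, 5.5%, 17.0%, 27.0% and 30.4% of members, and 17.4%, 25.5%, 29.9%, 33.8% and 37.3% of all these genes. With the GC correction the members counted 121 higher and 31 lower, with a median of 0.31 against 0.10 for all tested genes. Of all tested genes 32.4% were higher and 23.8% lower under that correction, against 25.5% and 27.2% without it. Zfp771, named after its value was seen, changed the sign of its called change. With the number of fingers rho was 0.23, and it was 0.08 with transcript length and 0.18 with mean level. The counts did not follow the number of fingers in order. Of 53 members with up to 5 patterns 18 were higher and 12 lower (median 0.14), of 80 with 6 to 10 26 were higher and 14 lower (0.20), of 85 with 11 to 15 41 were higher and 7 lower (0.43), and of 45 with 16 or more 18 were higher and 7 lower (0.21). Falls in the class of 6 to 10 were 9, 5 and 7 without control replicates 1, 2 and 3 and 9 without NETs-treated replicate 2. The falls in the class of 11 to 15 dropped to 4 without control replicate 1 or 2, and to 3 with control replicate 3 or NETs-treated replicate 2 left out.

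**Figure D4:**
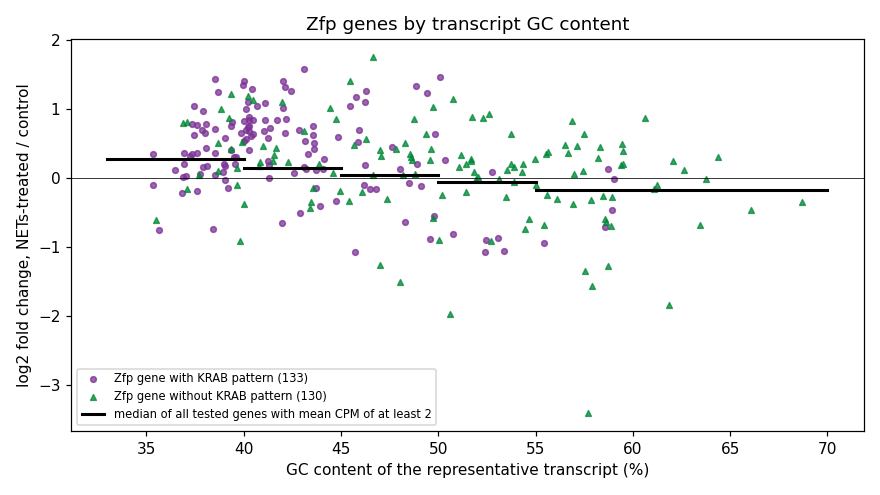
Log2 fold change (vertical axis) of 263 Zfp genes against the GC content of their transcript (horizontal axis, %), with circles for the 133 genes with the KRAB pattern and triangles for the 130 without. Black bars give the median of all tested genes with at least 2 CPM in each GC class, from 0.27 at the lowest to -0.18 at the highest, and the members thin out above 0 as GC content rises.

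The corepressor genes through which KRAB proteins act went both ways. Of 28 measured partner genes, 8 were higher (28.6%) and 5 lower (17.9%), with a median log2 fold change of 0.03. Beside them stand 25.5% and 27.2% of all tested genes, and 30.3% and 31.3% of those that reached 2 CPM. Trim28 was at 236, 239 and 226 CPM in control and 256, 246 and 261 CPM in NETs-treated libraries, groups that did not overlap, with a log2 difference of 0.12 ± 0.06 that did not pass (adjusted p = 0.115). It passed with a rise of 0.43 under GC correction (adjusted p = 0.00201). Setdb1 was at 120, 118 and 122 CPM in control and 122, 111 and 111 CPM in NETs-treated libraries and did not pass (-0.07 ± 0.07, adjusted p = 0.432), and its sign turned under GC and length correction. Hdac1, a histone deacetylase, rose by 0.91 ± 0.09 and Cbx1, which encodes HP1 beta, by 0.81 ± 0.07, while Trim24 fell by 1.06 ± 0.12 and the DNA methyltransferase gene Dnmt3a by 0.85 ± 0.07 on the log2 scale. The count of partner genes that were higher was 4 without control replicate 1 and 5 without control replicate 3, and the count that were lower was 8 without NETs-treated replicate 1.

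Zfp genes lie close together on several chromosomes, with 65 of 257 placed members on chromosome 7 and 32 on chromosome 17 (GRCm38). Neighbours whose starts lay within 1000000 bases of each other, in runs of at least 3, formed 24 clusters with 155 members, of which 51 were higher (32.9%) and 26 lower (16.8%). Of the 109 members outside clusters 53 were higher (48.6%) and 14 lower (12.8%), and the difference was not tested. Tested genes that reached 2 CPM had 30.3% higher and 31.3% lower. In 9 clusters all calls were rises, in 8 all were falls, 6 held both and 1 had no call. The rule for clusters was set after fold changes had been seen. In 7 clusters at least 60% of members were called in the same direction, and these are described here because of that.

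The clearest falling run was on chromosome 6 from 47835661 to 48623227, which holds 8 members from Zfp398 to Zfp775. Of these 6 were lower and none higher, with a median log2 fold change of -0.66. Zfp282, known as a repressor of a retroviral promoter and a coactivator of the oestrogen receptor, was at 18.7, 18.6 and 18.9 CPM in control and 11.8, 10.1 and 7.41 CPM in NETs-treated libraries. Its log2 change was -0.94 ± 0.17 (adjusted p = 0.00165). Zfp398 (-0.89), Zfp956 (-0.74), Zfp212 (-0.59), Zfp777 (-0.46) and Zfp467 (-1.57) fell as well, Zfp746 had lower values in each NETs-treated library without passing (adjusted p = 0.113), and Zfp775 at the end of the run had overlapping groups. The transcripts of this run hold 52.5% to 58.9% GC. With GC correction 3 of the 8 were lower and 1 was higher, with a median of -0.44; the calls of Zfp212, Zfp777 and Zfp956 were those lost (adjusted p of 0.0583, 0.258 and 0.103). Zfp777 also lost its call without control replicate 1, 2 or 3 or NETs-treated replicate 3 (adjusted p of 0.118, 0.0658, 0.0713 and 0.0517), and Zfp956 without control replicate 2 or 3 or NETs-treated replicate 1 (0.0731, 0.0663 and 0.0572). Zfp956 overlaps Zfp783 on the same strand. A run of 3 members on chromosome 9 from 22055411 to 22307648 held the falls of Zfp653 and Zfp809, and Zfp810 beside them did not pass.

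Of the 7 runs, 5 held rises and no falls. All 6 members on chromosome 9 from 19622102 to 20605409 were higher (Zfp317, Zfp560, Zfp26, Zfp426, Zfp266 and Zfp846), within a narrow range of log2 rises from 0.40 to 0.76, and all 6 carry the KRAB pattern. Zfp426 was at 12.9, 15.1 and 11.7 CPM in control and 24.2, 21.7 and 21.1 CPM in NETs-treated libraries, while Zfp26 had 24.3, 28.1 and 26.2 against 28.3, 32.8 and 42.9 CPM, nearly touching. The counts of this run without 1 library were 4 or 5. Zfp26 (adjusted p = 0.049) lost its call without control replicate 1, 2 or 3 or NETs-treated replicate 2 or 3 (0.154, 0.079, 0.122, 0.0797 and 0.0989). Zfp560 (adjusted p = 0.0374) lost it without control replicate 1, 2 or 3 or NETs-treated replicate 1 or 3 (0.11, 0.0508, 0.11, 0.0595 and 0.104) and with the GC correction (0.0631).

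On chromosome 7 all 5 members from 27731389 to 28014115 were higher (Zfp60, Zfp626, Zfp59, Zfp974 and Zfp850), with a median log2 rise of 0.72. The groups overlapped for Zfp59 (adjusted p = 0.0449), which shares 39.1% of its 75-base words with other genes and lost its call without control replicate 1, 2 or 3 or NETs-treated replicate 2 or 3 (0.122, 0.119, 0.0878, 0.101 and 0.129). A second run on chromosome 7, from 6131491 to 7209998, had 5 of 8 members higher and none lower, with a median of 1.11. It contains Zfp667, Zfp28, Zfp954, Zfp418 and Zfp772, each with a rise of at least 2-fold, although Zfp418 reached the abundance minimum through the NETs-treated group alone, and without it 4 of 7 were higher, short of the 60% by which these runs were picked. They lie beside Zfp787 and Zfp444, whose groups overlapped. Zfp28 was at 7.07, 7.01 and 7.62 CPM in control and 19.7, 15.6 and 16.5 CPM in NETs-treated libraries. Another run there, from 41633203 to 43593235, had 4 of 6 higher, with Zfp719 (1.26 ± 0.18 log2, adjusted p = 0.000448) and Zfp658 (1.33 ± 0.22, adjusted p = 0.0011) the largest.

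**Figure D5:**
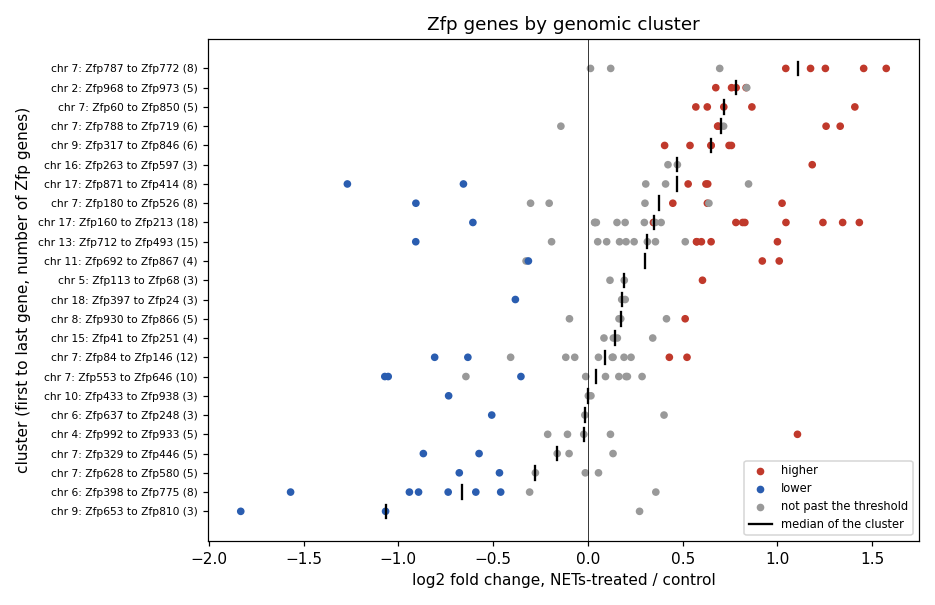
Log2 fold change (horizontal axis) of Zfp genes in 24 genomic clusters, 1 row per cluster named by its first and last gene with the number of genes in parentheses and sorted by the cluster's median (black tick). Points are coloured by the call at an adjusted p of 0.05, and the lowest rows are the runs from Zfp653 to Zfp810 and from Zfp398 to Zfp775.

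Duplication leaves some members that reads cannot tell apart. On chromosome 2, Zfp966, Zfp967, Zfp968 and Zfp969 have coding sequences of 1455 bases that are identical in every pair (100%). The same stretch at bases 622 to 705, a finger repeat, is shown once for all 4, in lower case throughout.
Zfp966 second repeat: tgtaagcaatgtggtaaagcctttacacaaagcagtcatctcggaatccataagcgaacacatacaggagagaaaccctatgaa
Values of the single genes are therefore uncertain, and their sum was taken instead. It was 19.1, 19.3 and 22.8 CPM in control and 32.5, 37.0 and 37.3 CPM in NETs-treated libraries, or 20.4 ± 2.09 and 35.6 ± 2.73 CPM (SD, n = 3), with groups that did not overlap. In the cluster that holds 3 of these genes, 4 of 5 members were higher, and Zfp965, which shares all its 75-base words with other genes, lost its call without control replicate 1 or 2 or NETs-treated replicate 2 (adjusted p of 0.0826, 0.0572 and 0.0774), while Zfp968 did not pass (adjusted p = 0.0617). In all, 27 members shared at least 20% of their 75-base words with other genes, a limit set after seeing the data. Without them 92 of 236 members were higher (39.0%) and 36 lower (15.3%), with a median log2 fold change of 0.25. Exons of 67 members overlap a gene on the other strand, and without these 79 of 196 members were higher (40.3%) and 29 lower (14.8%). Beside these counts stand 30.3% higher and 31.3% lower among all tested genes that reached 2 CPM. The program that counted the reads, and whether it used strand, is not stated in the labels.

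Promoters were read from RefSeq (GRCm38.p6), as the 250 bases before the start, for 218 members matched by symbol and 27025 windows in all. The windows of Zfp287, Zfp667, Zfp451 and Zfp467 are shown because these genes carried the large changes above. Capitals mark a CCAAT box (CCAAT, or ATTGG on the other strand), an ETS core (CCGGAAG, or CTTCCGG) and a GC box (GGGCGG, or CCGCCC).
Zfp287 promoter, chr11:62731897-62732146, minus strand: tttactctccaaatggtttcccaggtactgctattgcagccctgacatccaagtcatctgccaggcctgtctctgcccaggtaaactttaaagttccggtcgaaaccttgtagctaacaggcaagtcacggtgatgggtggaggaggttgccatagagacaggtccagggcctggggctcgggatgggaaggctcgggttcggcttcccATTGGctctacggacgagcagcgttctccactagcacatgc
Zfp667 promoter, chr7:6286330-6286579, plus strand: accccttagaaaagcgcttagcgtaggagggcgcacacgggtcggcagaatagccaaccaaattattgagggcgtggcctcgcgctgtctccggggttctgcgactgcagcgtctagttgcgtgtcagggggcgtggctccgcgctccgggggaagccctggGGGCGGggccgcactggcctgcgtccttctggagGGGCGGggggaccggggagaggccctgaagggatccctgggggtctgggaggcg
Zfp451 promoter, chr1:33814596-33814845, minus strand: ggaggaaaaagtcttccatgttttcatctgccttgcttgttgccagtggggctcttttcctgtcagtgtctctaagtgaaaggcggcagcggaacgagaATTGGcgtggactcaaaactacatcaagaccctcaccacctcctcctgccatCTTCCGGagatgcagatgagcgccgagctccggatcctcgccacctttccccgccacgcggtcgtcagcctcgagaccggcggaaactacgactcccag
Zfp467 promoter, chr6:48445091-48445340, minus strand: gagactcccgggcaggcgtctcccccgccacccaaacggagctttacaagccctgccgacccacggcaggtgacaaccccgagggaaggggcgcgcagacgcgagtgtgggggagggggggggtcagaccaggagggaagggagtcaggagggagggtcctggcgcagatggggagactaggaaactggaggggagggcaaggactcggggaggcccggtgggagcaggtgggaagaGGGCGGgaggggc
Of the 4 windows, those of Zfp287 and Zfp451 hold a CCAAT box, only that of Zfp451 an ETS core, and those of Zfp667 and Zfp467 a GC box.

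In all, 11 motifs were searched on both strands, and matches are descriptions of these letters only. The set of all windows was not limited to genes measured in these cells, while the members were. The CCAAT box was found in 49.5% of member windows and 34.5% of all windows, the ETS core in 17.9% and 7.1%, and the GC box in 42.7% and 32.9%. The TATA box (TATAAA) was found in 6.0% of member windows and 13.0% of all windows. Shares for CRE (TGACGTCA) were 3.7% and 1.6%, for AP-1 (TGANTCA) 4.1% and 6.9%, and for the NF-kappa-B motif 6.0% and 7.0%. The E-box (CACGTG) stood in 6.4% and 6.0%, the NRF1 motif in 6.4% and 3.9%, YY1 (AANATGGCG) in 1.8% and 1.1%, and the ZNF143 motif (ACTACAA) in 6.4% and 3.0%. Among members that rose, 57.3% of 89 windows held a CCAAT box and 21.3% an ETS core, and among members that fell 37.0% and 25.9% of 27 did. Of 102 windows of members not called, 46.1% held a CCAAT box and 12.7% an ETS core. Mean GC content was 55.3% in member windows and 53.0% in all windows.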

How the data were processed

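Strand-specific libraries were prepared from total RNA, per the labels' protocols. HISAT2, DESeq2 and the builds rn6 and mm10 are named without roles, per the submitters' processing notes. The authors deposited raw counts per gene, per the file headers, beside normalised counts, a signal that divides each deposited count by 1 size factor per sample, as checked on the values. Log2 fold changes and p-values are deposited in the same table and served as an alternative. Counting program and annotation release: not given in the sources used here.

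Samples were grouped by the treatment in the labels. The raw counts were tested with edgeR 4.0.16 in R 4.3.3 (quasi-likelihood, two-sided, TMM scaling, no covariates) after its filter on low counts (minimum 10, total 15), which kept 15272 genes and all 264 members, with Benjamini-Hochberg adjustment over all of them and a threshold of 0.05. CPM in the text is TMM-scaled, except in abundance minimums and levels per 1000 bases, and SE comes from the fitted fold change and its F statistic. The biological coefficient of variation was 18.5%, and libraries of a group differed by more than counting noise (chi-square per gene 9.94 to 80.3). The script was tested on simulated data. Floors from counts of 0 cover counting error only.

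The members and gene lists were chosen with earlier results of these data known, so the lists have no test of their own. Named genes are the 10 largest rises and falls with groups that do not overlap, the 8 most abundant, those beside the minimum, the 3 with the widest spread, called members of the role lists, and Trim28, Setdb1 and the 4 most changed partners. Members of the 7 described clusters, and others where stated, were added after values were seen.

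Gene IDs were matched without version to GENCODE M21 (GRCm38; 55141 of 55401), with coordinates printed only where versions agree (257 members). No protein table was used, so KRAB and finger classes planned from proteins rest on codon patterns. Of 3 KRAB patterns tried, the widest was kept, because the stricter ones missed known KRAB genes; this was done before fold changes were compared by class. GC classes, finger classes and motifs were chosen after seeing the data.

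Alternatives were upper-quartile scaling, DESeq2 size factors, library size only, DESeq2 1.42.0 with its Wald test, limma-voom (limma 3.58.1), other filters, higher member minimums, GC and length correction (lowess, span 0.3), the replicate number as a block, each library left out, and the authors' table. Deviations of same-numbered libraries correlated at 0.21, 0.03 and 0.08, so the numbers were not taken to pair the samples. A marker gene list is given without 1 of its genes, which is not reported here.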

Additional observations from a re-analysis of the deposited data

How the results depend on the processing

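The members' median log2 fold change of 0.26 was 0.18 with scaling by library size only, 0.31 with GC correction, 0.38 with length correction, 0.30 with the replicate block and GC correction, and 0.31 with a member minimum of 10 CPM; without 1 library it ran from 0.255 to 0.311. Library size, GC and length settings also moved the median of all tested genes, to -0.09, 0.10 and 0.10, and the members stayed 0.21 to 0.33 above it in all settings that kept the member minimum at 2 CPM. Counts without 1 library ran from 84 to 107 for rises and 24 to 40 for falls of members, from 8 to 14 for falls of KRAB-pattern members, and from 4 to 11 for rises and 4 to 8 for falls of corepressor genes. All tested genes had 20.7% to 26.1% higher and 21.8% to 27.5% lower in these fits. Falls of members numbered 18 of 147 with a member minimum of 10 CPM, and falls of KRAB-pattern members 9 with length correction. Rises under the stricter KRAB pattern numbered 40 of 89. Rises of corepressor genes numbered 4 with library size only and 13 with GC correction, where 21.9% and 32.4% of all tested genes were higher. Setdb1 turned to 0.045 with GC correction, 0.021 with length correction and 0.044 with the replicate block and GC correction. Some settings use smaller sets of genes or samples, and the cause of these moves was not tested.

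With the replicate number as a block, 108 members were higher and 40 lower. Same-numbered libraries did not all correlate best with each other. Of 76 named genes, 58 kept their direction and call under all settings run; over all genes and settings 1266 values did so, 86 lost the call, 13 gained it and 3 turned. Members near 2 CPM rest on fewer counts, and 3 libraries a group limit the changes that can pass.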
